A study of Mus musculus with 12 samples.

Results

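N6-methyladenosine (m6A) peaks whose middle lies within 100 nt of a stop codon were collected from hearts of young and aged mice. The lists of all 6 hearts held 41694 peaks, of which 34239 could be placed on a coding transcript, and 1768 of these lay at a stop codon. They belonged to 862 of the 6478 genes that had a listed peak and an annotated stop codon. The middle of a peak was taken along its exon blocks and measured on the spliced transcript with the longest coding sequence (CDS) of the gene, and a middle within 100 nt of the start codon was left out.

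The study profiled the cardiac m6A methylome with age by methylated RNA immunoprecipitation sequencing (MeRIP-seq), in which an antibody enriches RNA fragments that carry m6A and the enriched library is read against an input library of the same RNA. All hearts came from male C57BL/6 mice without treatment or transgene. The young group was 6 to 7 weeks old and the aged group 26 to 27 months old, and each age had 3 immunoprecipitates with their 3 inputs, which makes 12 libraries. Each immunoprecipitate with its input gave 1 peak list, called a heart here. The methods describe samples mixed from several hearts while the labels name single mice, so the number of animals behind a list is unsettled and p-values measure the spread between these samples. In bulk hearts fewer cells of a type and less RNA per cell cannot be told apart.

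m6A is written on nascent mRNA by a complex of METTL3, METTL14 and WTAP, removed by the demethylases FTO and ALKBH5, and read by YTH domain proteins that act on mRNA decay, export and translation. The methyltransferase prefers an adenosine inside a short consensus whose most common core in mammals is GGAC. In many mammalian tissues m6A is known to be dense around stop codons and in long internal and last exons, and exon junction complexes are known to keep the writer away from sequence close to splice junctions. The stop codon itself ends the reading frame and usually lies in the last exon.

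The lists hold calls and no reads. The depth of a library is therefore unknown, a missing peak means that none was called, and no list carries a normalization between hearts. Totals ran from 4114 to 6505 peaks in young and from 7284 to 9367 in aged hearts. Of 10 cardiomyocyte markers, 6 to 8 had a peak in the young and 7 to 9 in the aged hearts. Peaks on these markers numbered 52 to 89 in young and 77 to 109 in aged hearts. Of 5 immune markers 0 to 1 had a peak in any heart. Fibroblast markers with a peak numbered 1 to 2 of 6 in young and 3 to 4 of 6 in aged hearts, with 1 to 2 against 5 to 7 peaks. Endothelial markers numbered 4 to 5 of 6 in young and 5 to 6 in aged hearts, with 7 to 11 against 18 to 23 peaks, and smooth muscle and pericyte markers 2 to 4 of 5 and 4 of 5, with 2 to 7 against 13 to 14 peaks. The part of these cell types in the age differences below was not tested.

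Sequence at the stop codon is shown for those genes, of the 10 most strongly and steadily called regions, in which GGAC lies within 100 nt of the stop codon. It shows how near the consensus sits to the codon that places these peaks. Each stretch is 5′ to 3′ on the transcribed strand, with the stop codon and every GGAC in capitals, and runs from 60 nt before to 27 nt after the stop codon, except for Trak2, where 30 nt around its GGAC are given.
Cd164: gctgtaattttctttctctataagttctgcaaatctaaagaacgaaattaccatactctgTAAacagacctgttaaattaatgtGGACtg
Sidt2: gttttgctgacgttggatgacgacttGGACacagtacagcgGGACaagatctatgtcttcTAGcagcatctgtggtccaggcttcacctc
Fyn: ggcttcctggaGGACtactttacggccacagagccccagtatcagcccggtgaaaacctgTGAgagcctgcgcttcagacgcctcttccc
Spcs3: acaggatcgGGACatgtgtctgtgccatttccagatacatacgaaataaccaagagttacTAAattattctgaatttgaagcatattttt
Trak2: cagtttattgtgtGGACtgaggaggaatca
Tent4b: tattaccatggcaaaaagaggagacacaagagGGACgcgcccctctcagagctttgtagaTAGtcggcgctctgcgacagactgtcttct
Fitm2: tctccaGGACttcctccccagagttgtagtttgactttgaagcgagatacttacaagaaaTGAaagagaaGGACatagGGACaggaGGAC
Clock: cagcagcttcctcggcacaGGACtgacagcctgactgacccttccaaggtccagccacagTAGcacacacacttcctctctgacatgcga

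The stretches were read from the RefSeq sequence of GRCm38. On the plus strand they are chr10:41528779-41528868 for Cd164, chr10:39563910-39563999 for Fyn and chr8:88257213-88257302 for Tent4b. On the minus strand they are chr9:45939227-45939316 for Sidt2, chr8:54523236-54523325 for Spcs3, chr1:58903586-58903615 for Trak2, chr2:163469476-163469565 for Fitm2 and chr5:76216672-76216761 for Clock. Each holds the end of the CDS and the first bases of the 3′UTR, except that of Trak2, which lies in the CDS and ends before the stop codon. In the stretches shown GGAC lies before the stop codon in Sidt2, Fyn, Spcs3, Trak2, Tent4b and Clock, after it in Cd164 and on both sides of it in Fitm2, and Tent4b has 3 further copies after the stop codon, beyond the stretch.

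More stop codon peaks were listed in aged hearts. The young hearts held 274, 236 and 197 of them and the aged hearts 365, 373 and 323, so the ages did not overlap. The mean was 236 ± 38.5 in young and 354 ± 26.9 in aged hearts (SD, n = 3), a difference of 118 peaks with p = 0.1 in a two-sided exact permutation test, the smallest p that 3 hearts against 3 allow. The lists of aged hearts were longer as a whole. When the 4114 peaks with the lowest p-values were taken from every heart, 174, 188 and 197 stop codon peaks remained in young and 157, 153 and 168 in aged hearts, and the difference turned to -27.0 (exact permutation p = 0.1).

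As a share of placed peaks, stop codon peaks made up 5.07%, 5.46% and 5.68% in young and 4.91%, 4.95% and 5.32% in aged hearts. Their means were 5.40% ± 0.310 and 5.06% ± 0.226 (SD, n = 3), and the ages overlapped (exact permutation p = 0.2). The difference of -0.345 percentage points was -0.511 without young 1 and -0.205 without young 3, and with 4114 peaks per heart it was -0.780 and the ages did not overlap (exact permutation p = 0.1). Counted by gene, 7.50%, 7.25% and 7.72% of the genes in the young lists and 8.15%, 7.84% and 8.16% of those in the aged lists had a stop codon peak. These shares did not overlap and differed by 0.562 percentage points (exact permutation p = 0.1). Within the 4114 best peaks per heart this difference turned to -0.871 percentage points, and among peaks with a p-value of at most 1e-05 it was 0.216 (exact permutation p = 0.7).

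**Figure D1:**
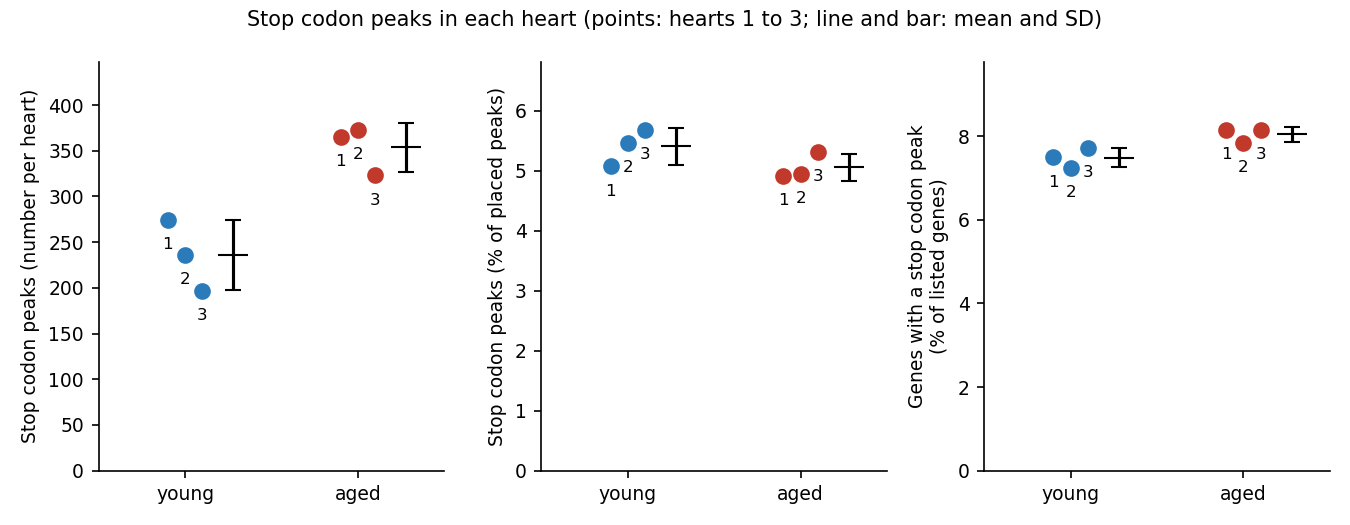
Number of stop codon peaks (left), their share of all placed peaks in percent (middle) and the share of listed genes that have one in percent (right), with each heart as a numbered point and the mean and SD of 3 hearts beside them. The 3 aged hearts lie above the 3 young hearts in the number of peaks (323 to 373 against 197 to 274) and in the share of genes, while the shares of placed peaks overlap.

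Peaks were not densest at the stop codon itself in these lists, as placed on the chosen transcripts. The density of peak middles over the transcripts in a heart's list was 396 ± 17.4 per Mb within 100 nt of the stop codon, as the mean and SD of 6 hearts, and 680 ± 48.8 per Mb from 300 to 101 nt before it. It was lower at the stop codon in 6 of 6 hearts, with a mean difference of -284 per Mb (exact sign-flip permutation test over the hearts, p = 0.03125, adjusted p = 0.0417 over 4 bands). From 500 to 301 nt before the stop codon the density was 578 per Mb, also above the stop codon in 6 of 6 hearts. Densities were measured on the transcript with the longest CDS alone and were not recomputed on other transcripts. With any coding transcript 3017 peaks, and not 1768, lay at a stop codon.

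Downstream the density fell off. It was 344 per Mb from 101 to 300 nt after the stop codon, lower than at the stop codon in 5 of 6 hearts with young 2 as the exception (exact sign-flip permutation p = 0.0625), and 254 per Mb from 301 to 500 nt after it, lower in 6 of 6 (exact sign-flip permutation p = 0.03125, adjusted p = 0.0417). Counted by bases and not by middles, the first base of the stop codon was inside a peak in 8.55% to 9.87% of the listed genes, against 13.1% to 17.1% for the base 200 nt before it and 3.23% to 5.64% for the base 500 nt after it. The rise upstream and the fall into the 3′UTR were seen in all 6 hearts.

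**Figure D2:**
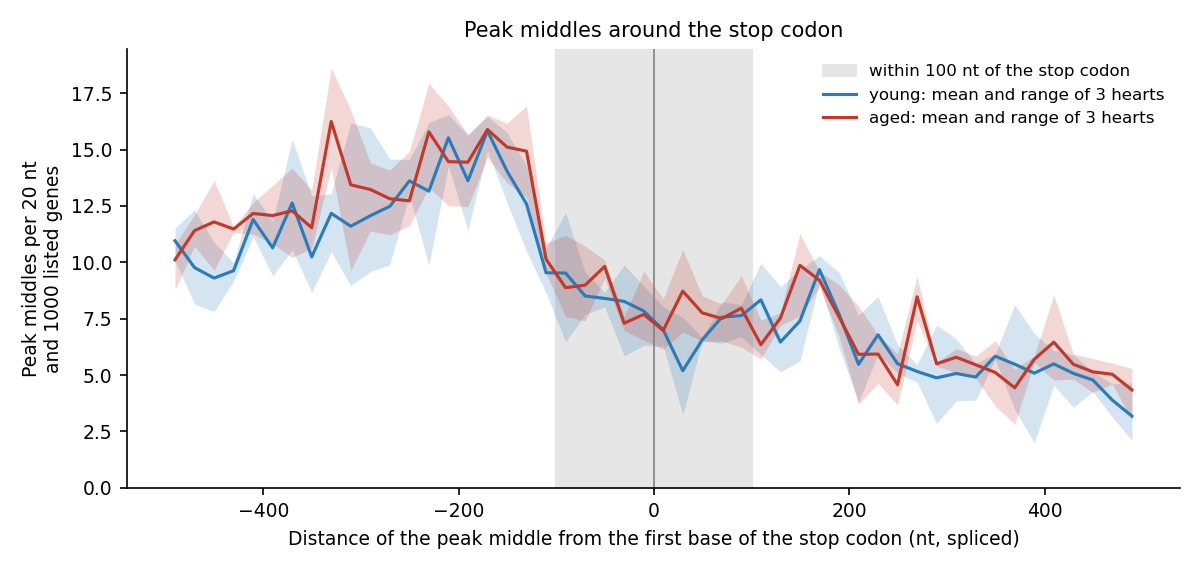
Peak middles per 20 nt and 1000 listed genes against the spliced distance from the first base of the stop codon in nt, with lines for the mean and bands for the range of 3 young and 3 aged hearts, and the 100 nt on either side of the stop codon in grey. The curves of both ages are highest upstream of the grey window, drop just before its left edge and fall on into the 3′UTR.

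Within the window, middles lay somewhat more often before than after the stop codon. In young hearts 55.5%, 53.0% and 58.9% of stop codon peaks had their middle before it and in aged hearts 52.3%, 52.3% and 52.9%. The aged shares were all lower, with means of 52.5% and 55.8% (exact permutation p = 0.1). The shares after the stop codon, 45.9% ± 1.49 in aged and 42.8% ± 2.93 in young hearts (SD, n = 3), overlapped (exact permutation p = 0.2). Without young 3 the difference before the stop codon was -1.70 and after it 1.53 percentage points, and the former was -0.954 with a window of 200 nt (exact permutation p = 0.7) and -0.606 with any coding transcript (exact permutation p = 0.8). Of all 1768 stop codon peaks, 1569 or 88.7% held a base of the stop codon itself. The share with GGAC was alike on either side of the limit of 100 nt. The 192 peaks with a middle 91 to 100 nt away had GGAC in 63.0% and the 179 peaks at 101 to 110 nt, just outside, in 63.7%. The density of middles did drop just before the upstream edge of the window, in every heart.

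Stop codon peaks held the m6A consensus more often than other peaks. GGAC was found in 64.2%, 64.4% and 64.0% of stop codon peaks in young and in 66.0%, 63.5% and 67.5% in aged hearts, and in 57.2% to 60.8% of the other placed peaks of a heart. The difference averaged 6.28 percentage points and was positive in 6 of 6 hearts (exact sign-flip permutation p = 0.03125, adjusted p = 0.0417 over 8 measures), where 0.03125 is the smallest p that 6 hearts allow. The difference was 7.28 with 4114 peaks per heart and 7.45 at p-values of at most 1e-05, positive in every heart but with adjusted p of 0.0625 and 0.05 in the exact sign-flip permutation test, not under the threshold. Many of the same genes contribute to several hearts, so the hearts are not independent draws of genes. Per length there were 5.68 ± 0.365 GGAC per kb of stop codon peak and 4.35 ± 0.165 per kb of other peaks (SD, n = 6), again higher in 6 of 6 hearts with the same p.

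The reverse complement GTCC, which has the same base composition and was searched on the same strand, stood at 3.34 per kb in stop codon peaks and 3.27 per kb in other peaks and was higher in 4 of 6 hearts (exact sign-flip permutation p = 0.531). GC content was higher by 1.20 percentage points on average, in 6 of 6 hearts and with an adjusted p of 0.0417 in the exact sign-flip permutation test. With the broader DRACH consensus in place of GGAC the difference in the share of peaks was 0.690 percentage points and was not past the threshold (exact sign-flip permutation p = 0.219).

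Set against each neighbour, stop codon peaks lay above both in GGAC. Peaks in the rest of the CDS had GGAC in 61.5% and at 4.53 per kb, and peaks in the rest of the 3′UTR in 47.0% and at 3.40 per kb, as means of 6 hearts. Stop codon peaks were higher in 6 of 6 hearts in each of these comparisons (exact sign-flip permutation p = 0.03125, adjusted p = 0.0417 for the CDS and 0.05 for the 3′UTR, the latter at and not under the threshold). The 3′UTR peaks also had the lowest GC content, 45.3%.

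In shape, stop codon peaks fell between those neighbours. They averaged 227 nt of exon, compared with 246 nt in the CDS and 217 nt in the 3′UTR, and 31.0% of them covered 2 or more exons, compared with 59.9% in the CDS and 1.32% in the 3′UTR. Against all other placed peaks they differed by -10.2 nt in length and by -17.2 percentage points in the share over several exons, each lower in 6 of 6 hearts (exact sign-flip permutation p = 0.03125, adjusted p = 0.0417). The stop codon lay in the last exon in 94.8% of genes with a stop codon peak. Exon spanning is thus largely set by the window that defines these peaks, and its p-value does not measure a trait beyond that position. With a peak counted at the stop codon of any coding transcript of its gene, which gave 3017 members, the difference in exon spanning turned to 0.804 percentage points.

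**Figure D3:**
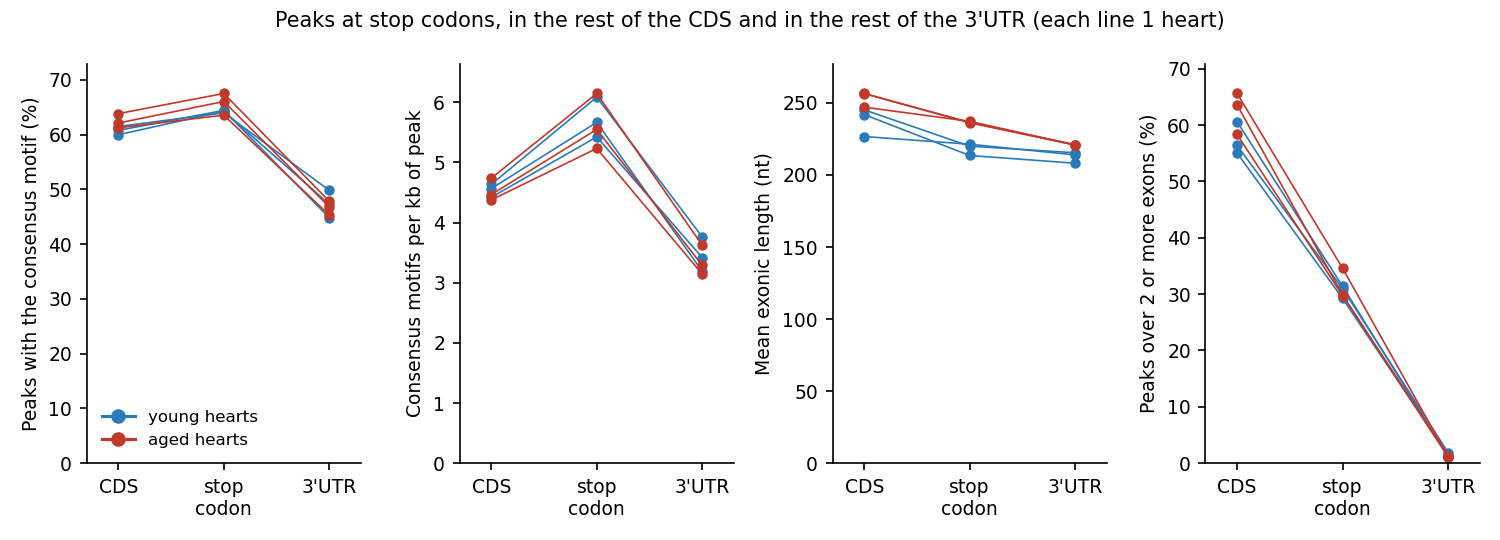
Share of peaks with the consensus motif in percent, motifs per kb, mean exonic length in nt and share of peaks over 2 or more exons in percent, for peaks in the rest of the CDS, at the stop codon and in the rest of the 3′UTR, each line being 1 heart. Stop codon peaks have the highest motif density in every heart (5.23 to 6.15 per kb) and an intermediate share over several exons (29.2% to 34.6%).

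In the full lists stop codon peaks ranked lower than other peaks. Peaks were ranked by p-value within each heart, with 0% for the lowest p-value. The median rank of stop codon peaks was 54.1% against 48.6% for other placed peaks, higher and therefore weaker in 6 of 6 hearts, with a gap between 2.15 and 11.7 percentage points that was largest in young 3 (exact sign-flip permutation p = 0.03125, adjusted p = 0.0417). It was 46.6% in the CDS and 55.5% in the 3′UTR. The direction of length and rank depended on how a peak is placed: among the 2090 peaks that held any base of a stop codon, peaks were longer than the rest by 41.4 nt and their median rank differed by -8.03 percentage points.

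A stop codon peak overlapped a peak in 2.72 of the 5 other hearts on average and another placed peak in 2.85, a difference below the threshold (exact sign-flip permutation p = 0.125). Calls at stop codons varied between hearts of the same age as well as between ages. Any pair of hearts shared between 71 and 170 genes with a stop codon peak, which was 21.6% to 52.8% of the genes of 1 of the hearts. Of the 862 genes, 449 had a stop codon peak in 1 heart, 167 in 2, 103 in 3, 73 in 4, 41 in 5 and 29 in all 6. Stop codon peaks were listed in both ages for 312 genes, in aged hearts alone for 370 (42.9%) and in young hearts alone for 180 (20.9%). The aged lists were longer, and an imbalance was present elsewhere too. Among 5862 genes with a placed peak anywhere away from the stop codon, 1633 (27.9%) had it solely in the aged group and 529 (9.02%) solely in the young. Overlapping peaks of all hearts were also joined into regions. Of regions with a stop codon peak 31.5% were listed in aged hearts alone, and of other regions with a placed peak 42.2%. In young hearts alone the shares were 13.2% and 14.1%. The cause of the imbalance was not tested. Of the 370 genes, 99 (26.8%) had an overlapping peak of another placement in a young heart, and of the 180 genes 67 (37.2%) had one in an aged heart, so that part of these calls differed between ages by the position of the middle and not by the presence of a peak. For 663 genes (76.9%) a peak was also placed elsewhere on the transcript.

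Compared between ages, stop codon peaks of aged hearts were longer. Their mean exonic length was 220, 221 and 214 nt in young and 236, 237 and 236 nt in aged hearts, which did not overlap (exact permutation p = 0.1, adjusted p = 0.4 over 8 measures). Other placed peaks differed in the same direction, at 231 nt in young and 244 nt in aged hearts, and the difference between these differences was 4.97 nt (exact permutation p = 0.5). With 4114 peaks per heart stop codon peaks were longer in aged hearts by 70.7 nt and other placed peaks by 58.5 nt, with a gap between these of 12.2 nt (exact permutation p = 0.3). A stop codon peak of a young heart overlapped a peak in 2.92 ± 0.0644 other hearts and one of an aged heart in 2.51 ± 0.130 (SD, n = 3), without overlap of the ages (exact permutation p = 0.1), and with 4114 peaks per heart that difference turned to 0.622. GGAC was present in 64.2% ± 0.226 of young and 65.7% ± 2.00 of aged stop codon peaks (SD, n = 3) and overlapped (exact permutation p = 0.4). With 4114 peaks per heart the shares with GGAC were 67.1% and 74.4% and did not overlap (exact permutation p = 0.1), other placed peaks differed by 5.47 percentage points in the same direction, and GGAC per kb differed by -0.0543 (exact permutation p = 1). The other 5 measures, among them GGAC per kb, GC content and rank, overlapped between the ages as well in the full lists. With 4114 peaks per heart the median rank of stop codon peaks stood at 59.8% for the young and 49.9% for the aged group (exact permutation p = 0.1). That of other placed peaks stood at 49.0% and 49.4%.

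The genes that carry stop codon peaks were compared with the other genes of the same list, using the transcript sequence alone. GGAC occurred in the window of 100 nt on either side of the stop codon in 64.4% ± 2.20 of genes with a stop codon peak and in 61.5% ± 0.460 of the other genes (SD, n = 6). The share was higher in 6 of 6 hearts by 0.438 to 6.64 percentage points (exact sign-flip permutation p = 0.03125), and failed correction over 9 measures (adjusted p = 0.141). With any coding transcript the difference turned to -0.595 percentage points. Over all listed genes, 3774 of 6136 complete windows (61.5%) held GGAC and 3044 (49.6%) held GTCC. GTCC did not separate the groups, at 49.5% and 49.6%.

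The motif was also counted on each side of the stop codon. In the 98 nt after the stop codon GGAC was present in 41.6% ± 2.35 of genes with a stop codon peak and in 34.8% ± 0.391 of the others (SD, n = 6), a mean difference of 6.84 percentage points that was positive in 6 of 6 hearts (exact sign-flip permutation p = 0.03125, adjusted p = 0.0625 over both sides). In the 100 nt before it the shares were 43.4% and 41.1%, higher in 5 of 6 hearts with young 2 as the exception (exact sign-flip permutation p = 0.0625). With any coding transcript the difference before the stop codon turned to -1.45 and that after it was 3.07 percentage points. The difference between the sides was not tested.

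**Figure D4:**
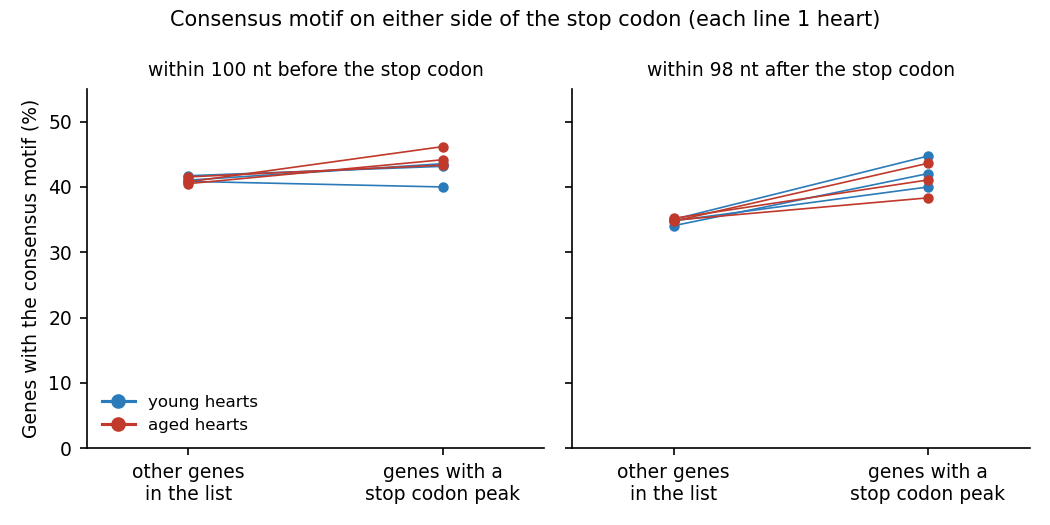
Share of genes in percent that hold the consensus motif within 100 nt before (left) and 98 nt after (right) the stop codon, for genes with a stop codon peak and for the other genes in the same list, each line being 1 heart. After the stop codon every line rises, from 34.1% to 35.2% in other genes to 38.3% to 44.7% in genes with a peak, and before it 5 of 6 lines rise.

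Genes with a stop codon peak had a shorter CDS, with a median of 1374.5 nt against 1778 nt in the other genes as the mean of 6 hearts. It was shorter in 6 of 6 hearts, with differences from -525 to -315 nt (exact sign-flip permutation p = 0.03125, adjusted p = 0.141). The other genes are in a list only through peaks away from the stop codon, and 23767 of 34239 placed peaks were CDS peaks. A longer CDS leaves more room for such peaks, so this comparison is not free of how genes entered the lists. The median 3′UTR of genes with a stop codon peak was 1359 nt against 1248 nt, longer in 5 of 6 hearts (exact sign-flip permutation p = 0.0625). The stop codon lay in the last exon in 94.8% and 94.9% of these genes. The 3 stop codons were used alike within the spread, TGA in 50.1% and 48.7%, TAA in 27.1% and 28.0% and TAG in 22.8% and 23.2%, with none past the threshold.

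Of the regions formed by joining overlapping peaks of the 6 hearts, 856 of 15699 held a stop codon peak. A peak of any placement was present in all 6 hearts in 135 of them (15.8%), compared with 1663 of all 15699 regions (10.6%). A stop codon peak of any heart is enough to count a region, so regions with peaks in more hearts had more chances to qualify. The higher share is therefore not a result about stop codons. Of the 856 regions, 29 had a stop codon peak in every heart. Of those 29, 28 have the full 100 nt on either side of the stop codon, and 21 of these windows hold GGAC. The 10 named here are those whose weakest peak ranked best in its list.

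Cd164, a sialomucin of the cell surface and endosomes, had the strongest stop codon peak by this measure. Its deposited p-value was 1e-255, 0 and 1e-161 in young hearts and its rank lay between 0.886% and 3.00% in all 6, with middles at -74 to -15 nt from the TAA stop codon, where negative values lie before it. Sidt2, a lysosomal membrane protein that takes part in RNA transport, ranked between 2.65% and 7.19%, and its middles lay between -81 and 8 nt. Fyn, a tyrosine kinase of the Src family, ranked between 2.76% and 8.54%. In both genes the GGAC of the printed stretch lies before the stop codon.

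Spcs3, a subunit of the signal peptidase complex, ranked between 1.41% and 14.6%, and its middles were spread from -35 to 99 nt. Trak2, an adaptor between mitochondria and kinesin motors, ranked between 1.10% and 15.0%. Srp9, a subunit of the signal recognition particle, ranked between 1.92% and 15.2%, and Sh3bgr, a small protein of heart and skeletal muscle, between 2.82% and 18.9%. Neither Srp9 nor Sh3bgr has GGAC within 100 nt of its stop codon.

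Tent4b, a poly(A) polymerase of the non-canonical family, ranked between 5.22% and 20.4%, and Fitm2, an endoplasmic reticulum protein of lipid droplet formation, between 10.6% and 22.5%. Both have 4 copies of GGAC within 100 nt of the stop codon, 1 before and 3 after the stop codon. Clock, a transcription factor of the circadian oscillator, ranked between 3.82% and 28.0%, with middles from -30 to 45 nt at its TAG stop codon. In 9 of these 10 regions the ranks of young and aged hearts overlapped and in Trak2 they did not, but ranks in percent of lists of different length do not measure a difference between ages.

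Few stop codon regions separated the ages completely. A region was counted when every one of the 3 hearts of an age had a peak there, at the stop codon or beside it, and no heart of the other age did. This held for 15 of the 856 stop codon regions (1.75%) for aged hearts, against 2.68% of all 15699 regions, and for 1 (0.117%) for young hearts, against 0.0446% of all regions. The share for aged hearts lay under the background, and the young count is a single region, so neither is a result about stop codons. Among regions with a peak in exactly 3 hearts, 15 of 95 stop codon regions (15.8%) and 406 of 1667 other regions (24.4%) belonged to the 3 aged hearts. With 4114 peaks per heart 2 stop codon regions separated towards aged and 7 towards young hearts.

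Pdk2, a kinase that inhibits the pyruvate dehydrogenase complex, had the best ranked of these regions. Its deposited p-values were 3.2e-38, 1e-35 and 7.9e-14 in the aged hearts, at ranks of 11.8%, 13.9% and 30.9%, and all 3 middles lay within 76 nt of the stop codon. No peak of Pdk2 was listed in any young heart. Mxra7, a gene named for matrix remodelling, ranked between 38.0% and 49.9% with middles within 17 nt of the stop codon, and 5 copies of GGAC lie within 100 nt of it. Aff1, a scaffold of the super elongation complex, ranked between 31.0% and 54.0% and had peaks elsewhere on the gene in all 3 young hearts.

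Bckdhb, the beta subunit of the branched-chain ketoacid dehydrogenase, had a stop codon peak in aged 1 and aged 3, while the peak of aged 2 could not be placed on the chosen transcript. Its stop codon is not in the last exon. Rnf5, a ubiquitin ligase of the endoplasmic reticulum, had a stop codon peak in aged 3 with its middle 95 nt after the stop codon, and in aged 1 and aged 2 the middles lay just outside the window at 124 and 110 nt. Of the 15 regions, 4 had a stop codon peak in all 3 aged hearts, and the genes of 9 had no peak of any kind in a young heart. The remaining 10 regions belonged to Gpx3, Bmi1, Tagln2, Arcn1, Ndnf, Timm29, Tlr4, Dhx40, C1galt1 and Chd7.

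H2afj, which encodes a variant of histone H2A, was the only stop codon region listed in the 3 young and in no aged heart. Its best ranked peaks stood at 66.9%, 50.2% and 87.9% of their lists, and in young 2 the middle lay in the CDS at -120 nt. That region rests on weakly ranked peaks.

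**Figure D5:**
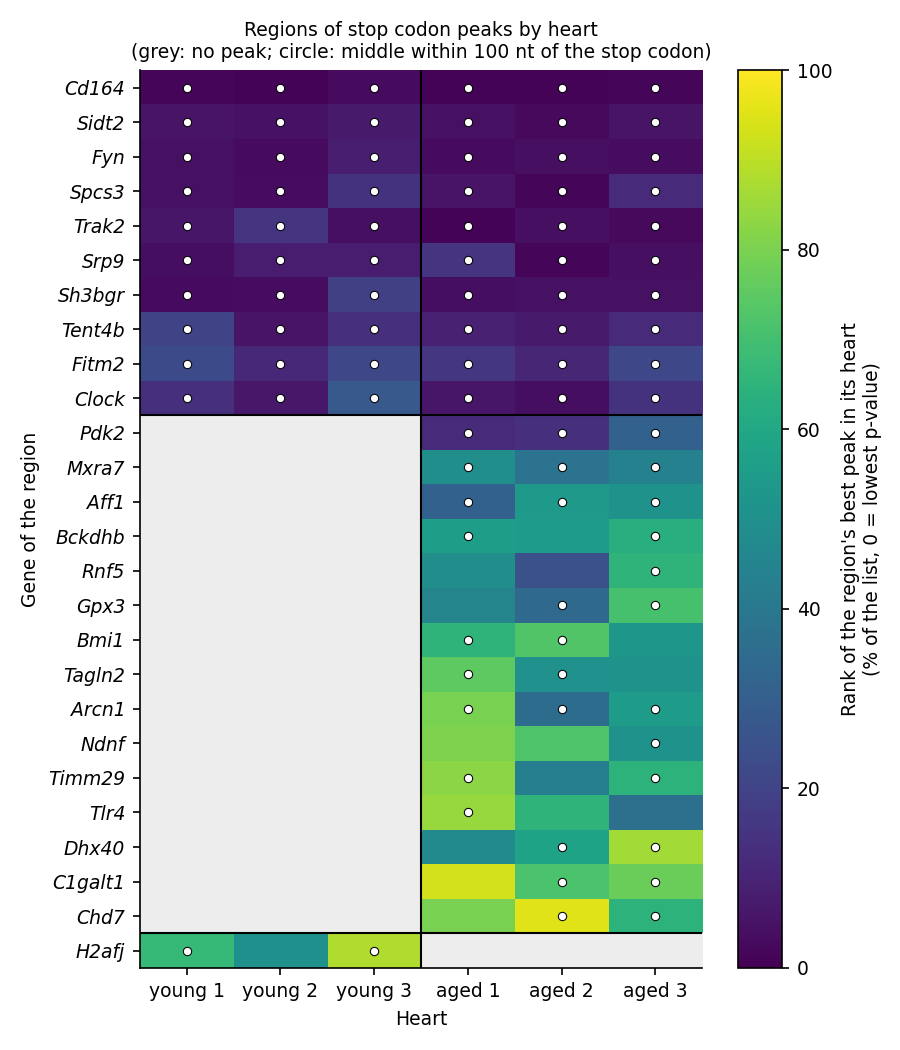
Rank of the best peak of each named or separating region in each heart, in percent of the list with 0 for the lowest p-value, for the 10 regions with a stop codon peak in all hearts, the 15 listed in aged hearts alone and H2afj, with grey for no peak and circles for a middle within 100 nt of the stop codon. The upper 10 regions rank within 28.0% in every heart, and those of 1 age alone rank between 11.8% and 94.9%.

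Gene lists of cardiac function were read against the share of all listed genes with a stop codon peak in at least 1 heart, 13.3%. Among genes of insulin, PI3K and growth signalling 12 of 29 had one (41.4%) and among transcription factors of the heart 11 of 32 (34.4%). The shares of protein quality control (5 of 24, 20.8%), extracellular matrix and fibrosis (6 of 31, 19.4%), sarcomere and contraction (5 of 29, 17.2%), mitochondrial energy metabolism (4 of 24, 16.7%), calcium handling and ion channels (4 of 25, 16.0%), chromatin regulators (4 of 27, 14.8%) and fatty acid and lipid metabolism (3 of 21, 14.3%) lay between 14.3% and 20.8%. Of the m6A regulators 1 of 14 (7.14%) had one. These counts are a description, since the lists were written with earlier results of these data known. Of the 36 list genes taken by the rule for named genes, 12 had a peak of any placement over the region in all 6 hearts, and 1 of these, Jun, had its middle at the stop codon in every heart.

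In the signalling list, Gsk3a, a kinase that inhibits glycogen synthase, had a stop codon peak in all 3 young hearts and in aged 1 and aged 3. Akt2, the Akt kinase most tied to insulin action, had one in young 1, young 2 and the 3 aged hearts. Insr, the insulin receptor, had one in young 1 and the 3 aged hearts at a mean rank of 10.7%, and Pik3r1, the regulatory subunit of PI3K, in young 2, aged 1 and aged 2. The regions of Gsk3a, Insr and Pik3r1 carried a peak in all 6 hearts. In the hearts without a stop codon peak the nearest middle lay outside the window, at -104 nt for Gsk3a in aged 2, at 142 nt for Insr in young 2 and young 3, and at -120, -105 and 195 nt for Pik3r1 in young 1, young 3 and aged 3.

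Among transcription factors, Jun, a subunit of AP-1, had a stop codon peak in all 6 hearts at a mean rank of 26.8%. Klf4, Foxo3 and Zbtb16 had one in 3 hearts each, all with both ages represented. The regions of Klf4 and Foxo3 carried a peak in all 6 hearts. Where it was not at the stop codon its middle lay at 103 nt for Klf4 and at 109 or 169 nt for Foxo3. Klf4 and Foxo3 are regulators of smooth muscle state and of stress responses, and Klf4 had the best mean rank of these 4 genes, 14.2%.

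Among contraction genes, Myom1, which encodes the M-band protein myomesin, had a stop codon peak in young 3 and in the 3 aged hearts at a mean rank of 6.47%. In young 1 a peak over the same region of Myom1 was centred in the CDS at -242 nt. Ttn, the giant spring of the sarcomere, had a stop codon peak in the 3 aged hearts and in no young heart, at a mean rank of 16.7%. Xirp1, an actin-binding protein of intercalated discs, had one in 1 heart. Ttn is not among the 15 separating regions, because young 1 had an overlapping peak with its middle at 108 nt, just outside the window.

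In calcium handling, Jph2, which holds the junction of the T-tubule with the sarcoplasmic reticulum, had a stop codon peak in 1 heart of each age. Gja1, the gap junction protein connexin 43, had one in young 1 and young 3 alone, at -37 and -67 nt. In young 2 and the 3 aged hearts the peak over the same region of Gja1 was centred in the CDS at -217 or -247 nt. The calcium buffer Casq2 and the potassium channel Kcnd2 had one in 1 young heart each. Of the energy genes, the coactivators Ppargc1a and Ppargc1b had one in 3 and 2 hearts of both ages, and Mfn2, of mitochondrial fusion, in aged 1. The regions of Casq2 and Mfn2 carried a peak of any placement in all 6 hearts. Pdk2 of the energy list is described above.

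Of the lipid genes, Acsl1, which activates long-chain fatty acids, had a stop codon peak in young 2 and in the 3 aged hearts at a mean rank of 9.24%. In young 3 a peak over the same region of Acsl1 had its middle just outside the window, at -119 nt. Ppara, the nuclear receptor of fatty acid oxidation, had a stop codon peak in aged 1 and aged 2 and Dgat2, of triglyceride synthesis, in aged 3. In the matrix list, the protease inhibitor Timp3 had one in 3 hearts, the basement membrane protein Nid1 in 2, and the proteoglycan Hspg2 and the collagen Col5a1 in 1 each. A peak of any placement lay over the regions of Timp3 and Nid1 in all 6 hearts. Of the 31 matrix genes with a peak, 0 were called at the stop codon in 4 or more hearts. Over all listed genes it was 143 of 6478, so that count is no result about the matrix list.

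Of the protein quality genes, the disulfide isomerase Pdia3 had a stop codon peak in 3 hearts, the co-chaperone Bag3 in 2, and the chaperones Hspa5 and Canx in 1 aged heart each. Hspa5 ranked at 1.48% in aged 2 with its middle at -63 nt, and in the other 5 hearts the peak of the same region was centred in the CDS between -213 and -108 nt. The region of Canx also carried a peak centred in the CDS, at -142 nt in young 1 and at -127 nt in young 3 and aged 1. Of the chromatin genes, the DNA methyltransferase Dnmt3a had a stop codon peak in 4 hearts, and Smarca4, Kmt2a and Sirt1 in 1 each. Of the m6A regulators, the reader Ythdf3 had one in aged 1 and aged 2 at a mean rank of 64.6%, and none of the other listed regulators had one in any heart. In young 2 a peak over the same region of Ythdf3 had its middle at -114 nt, just outside the window.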

How the data were processed

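Clean reads were aligned by the authors to GRCm38 with Hisat2 (2.1.0) and peaks were called in each heart with exomePeak (2.13.2) at a p-value of 0.05. The deposited p-value, the only measurement in the lists, is not adjusted, was 0 for 503 peaks and was used here for ranks inside each list and for filters. No column of per-sample values was left unused. RNA was cut to 100 to 200 nt.

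Of 7088 gene identifiers, 7081 were found in GENCODE M21, 6512 had a coding transcript and 6478 an annotated stop codon, and the CDS transcript was the longest, with ties broken by exon length. In 13 cases overlapping stop codon peaks of a heart were listed for different genes. Peaks sharing at least 1 exon base on a strand were joined into regions. GGAC and GTCC were searched on the transcribed strand of the RefSeq GRCm38 genome.

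Ages were compared by a two-sided exact permutation test over 20 assignments, and stop codon with other peaks or genes by a two-sided exact sign-flip test over 6 hearts, with Benjamini-Hochberg adjustment and a threshold of 0.05. Placement, regions and tests were checked on simulated data. Members, gene lists and tests were chosen with earlier results of these data known, and the bands, the sides of the motif, the share of genes and the peaks of the other age after seeing the data. Named were the 10 best regions with a stop codon peak in all hearts, the first 5 separating regions per age, the 4 genes of each list called in most hearts and m6A regulators with one. The other 10 separating regions were named after their values were seen. 1 gene that the rule takes is not reported here.

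Alternatives were p of at most 1e-05, 4114 peaks per heart, windows of 50 and 200 nt, any overlap with the stop codon, any coding transcript, DRACH, GTCC or the central 100 nt, 50% shared length, 2 hearts per age, each heart left out and a replicate block. Input signal and RNA levels were not analysed here. The software was Python 3.11.15 with numpy 2.4.6, pysam 0.24.0 and matplotlib 3.10.9, and samtools 1.23.1.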

Additional observations from a re-analysis of the deposited data

How the results depend on the processing

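Of 365 recomputed values of 30 results, 254 were counted as kept, which for results with a p-value means the same direction and side of the threshold. Comparisons of aged with young hearts have a smallest exact permutation p of 0.1, so only their direction could change. The counts of separating regions have no p-value and were judged by their size. The number kept is therefore not a measure of how firm the results are. Values below are differences of stop codon from other placed peaks unless named otherwise, and those of stop codon type, last exon and windows compare genes, with shares in percentage points. With 4114 peaks per heart, aged minus young turned to -27.0 for the number of stop codon peaks, -0.871 for the share of genes and 0.622 for other hearts with an overlap, and 2 aged and 7 young regions separated. There the differences in GGAC share (7.28), GGAC per kb (1.49), length (-9.78 nt), peaks over several exons (-13.6), rank (5.70) and GC content (1.23) kept their direction with adjusted p over the threshold. At p of at most 1e-05 they were 7.45, 1.52, -10.2, -13.3, 3.57 and 1.12, also not under it, GTCC per kb turned to -0.0150, the share of TAG to 0.456, and 0 young regions separated. With 50 nt, length (-11.7 nt) lost and other hearts (-0.191) gained the threshold, GTCC per kb (-0.136), TAG (3.52) and TGA (-1.18) turned, and 0 young regions separated. With 200 nt, GGAC before (1.97) and after (3.54) the stop codon in genes passed the threshold, TAA turned to 0.428 and 34 aged regions separated. With any overlap, length (41.4 nt), rank (-8.03), other hearts (0.326), TAG (0.571), last exon (0.733) and windows with GTCC (0.313) turned, and 0 young regions separated. With any coding transcript, peaks over several exons (0.804), GTCC per kb (-0.0380), GGAC in aged minus young stop codon peaks (-0.744), and GGAC in genes before the stop codon (-1.45) and in the whole window (-0.595) turned, other hearts (-0.138) passed the threshold and 37 aged regions separated. DRACH gave a share of 0.690 and GTCC in place of GGAC 0.0723 per kb. With 2 hearts of an age and none of the other, 73 aged and 19 young regions separated. The cause of these changes was not tested. With 1 heart left out the smallest sign-flip p is 0.0625, so no value can pass, and the ranges were 6.10 to 6.64 for GGAC share, 1.29 to 1.39 for GGAC per kb, -12.1 to -8.21 nt for length, -18.1 to -16.4 for peaks over several exons, 4.17 to 6.08 for rank, 1.12 to 1.26 for GC content, -294 to -275 per Mb against the nearest band before and 128 to 152 against the farther band after, -0.00609 (without young 3) to 0.155 for GTCC per kb, -0.327 to 0.0221 (without aged 1, and 0.0207 without aged 2) for the last exon and -0.321 to 0.928 (without aged 3) for windows with GTCC. With a heart fewer to satisfy, 18 (without young 3) to 42 (without young 1) aged regions separated and 2 (without aged 1) to 9 (without young 3) young ones. With a replicate block the difference in the number of stop codon peaks stayed at 118 with p = 0.25, the smallest exact permutation p such a block allows, and no call changed. Same-numbered hearts of the 2 ages deviated with correlations of -0.00178 to 0.0478 over all regions, so the numbers were not taken as pairs. Unknown depth limits every count, since a peak may be missed where reads are few.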
